A study of Mus musculus with 4 samples.

Results

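Myoc-positive astrocytes were studied in nuclei of the mouse brain, as the nuclei that carried the transcript of Myoc together with those of general astrocyte genes. A nucleus was a member when it held at least 1 Myoc UMI, at least 4 UMIs summed over the astrocyte genes Slc1a3, Aqp4, Gja1, Ntsr2 and Gfap, at most 1 UMI over the neuron genes Rbfox3, Slc17a7, Slc17a6, Gad1 and Gad2, and at most 1 UMI over Mog, Csf1r, Cldn5 and Pdgfra, which mark oligodendrocytes, microglia, endothelial cells and oligodendrocyte precursors. A UMI, a unique molecular identifier, stands for 1 captured transcript. The members were thus chosen by the measured counts of these 15 genes, whose values are given as a description. The rule found 283 members among 78728 nuclei. Another 4284 nuclei met the same limits with 0 Myoc UMIs and are called Myoc-negative astrocytes, and 288 of these had at least 2 Gfap UMIs and are called Gfap-carrying Myoc-negative astrocytes.

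Astrocytes are the glial cells that supply neurons with metabolites and clear transmitters, ions and water from around them. Those at the brain surface form the glia limitans, a sheet of processes that lies under the pia and borders the cerebrospinal fluid. Surface astrocytes, and the fibrous astrocytes of white matter, are rich in Gfap, an intermediate filament protein, whereas astrocytes of grey matter carry more of the machinery for glutamate and GABA uptake. Myoc codes for myocilin, a secreted glycoprotein of the olfactomedin family that is best known from the drainage tissue of the eye and marks surface astrocytes in the mouse brain. Aqp4 codes for the water channel of astrocyte endfeet.

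The series holds 4 single-nucleus libraries of male C57BL/6J mice, with tissue labelled cortex or striatum from each of a pair of virus groups. The virus named AAV-VEGF-C made mouse VEGF-C in its full length, a growth factor of lymphatic vessels. AAV-CTRL carried a soluble part of its receptor VEGFR-3 that does not bind VEGF-C, so the control mice also received a secreted protein. Both were given into the cisterna magna at 4 weeks of age, and brains were taken at 8 weeks. Tissue of 5 mice was pooled per virus group, so both region labels of a virus group come from the same mice and single mice cannot be told apart. There is 1 library per group, and differences between virus groups are therefore described with counting intervals (95%, counting error only) and no test. Unless stated otherwise, 4 values in a row are those of the libraries labelled cortex (AAV-CTRL, then AAV-VEGF-C) followed by those labelled striatum (in the same order of viruses). Levels are UMIs of a gene per 1000000 UMIs of the class in a library.

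The libraries held 17168 to 23724 nuclei with a median of 2272 to 2873 UMIs. Of 78130 distinct barcodes, 598 were seen in more than 1 library. That was so for 5 member barcodes, and 0 barcodes were members in more than 1 library. The libraries labelled striatum had less of the striatal neuron gene Drd1 over all nuclei (levels of 11.1 and 9.97) than those labelled cortex (27.0 and 34.3), and more Slc17a6, the glutamate transporter of thalamic and brainstem neurons (144 and 172.3 against 15.9 and 15.9). Vegfc, the gene that the virus was to deliver, was not higher over all nuclei of the AAV-VEGF-C libraries, at 11.6 against 12.2 under the cortex label and 12.1 against 12.9 under the striatum label, from 769 to 997 UMIs a library. A sum over all nuclei can miss a change in a rare cell type. The authors report more Vegfc in smooth muscle cells after AAV-VEGF-C, and more VEGF-C protein in cerebrospinal fluid and brain. Whether transcripts of the virus could be counted is not given in the sources used here. The region and virus names below are the labels of the libraries.

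The libraries gave 55, 51, 131 and 46 members. Their median depth was 1870, 1798, 1992 and 2407.5 UMIs, against 1925, 1896, 1910 and 2207.5 in Myoc-negative astrocytes, and all members together held 106952, 100608, 308428 and 127380 UMIs. Of the members, 117 had 1 Myoc UMI, 81 had 2 to 3 and 85 had 4 or more, and the highest nucleus had 50. The Myoc level in members was 1954, 1720, 1663 and 2033. These values follow from the rule. At its lower edge, 25 members had exactly 4 UMIs over the astrocyte genes and 53 Myoc UMIs in all, and 20 nuclei with 3 such UMIs met every other limit and had 24 Myoc UMIs.

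Gfap and Aqp4, the markers that go with the label, are also part of the rule. Their levels are therefore a description and cannot check the label. Gfap stood at 1692, 1700, 2069 and 3274 in members, against 147, 159, 195 and 167 in Myoc-negative astrocytes. Aqp4 stood at 1599, 1660, 2192 and 2339 against 357, 326, 612 and 511. Both genes were higher in members in all 4 libraries. Slc1a3, a glutamate transporter of all astrocytes, went the other way, with 1197, 1004, 973 and 816 in members and 2067, 2166, 1531 and 1383 in Myoc-negative astrocytes. The gap-junction gene Gja1 was at 739, 775, 830 and 722 against 607, 649, 819 and 806. Slc1a3 and Gja1 are also genes of the rule, which summed the astrocyte genes, so these levels are not independent. General astrocyte markers outside the rule were present as well. Of the 20 genes of that list, all tested as described below, 5 were higher and 2 lower in members, with Apoe, a lipid carrier, and Mlc1, a membrane protein of endfeet, among the higher and Fgfr3, a growth factor receptor, and Htra1, a protease, the lower. The position of a nucleus at the brain surface was not measured.

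The rule left out most Myoc transcripts. Over all libraries 1546 nuclei held 4107 Myoc UMIs, of which members held 28.1%. Nuclei with at least 4 astrocyte-gene UMIs but more than 1 neuron-gene UMI held 42.7% in 329 nuclei. Nuclei under the astrocyte limit held 24.0% in 894 nuclei. In the 329 nuclei the summed level of surface and fibrous astrocyte genes was 2722, 1632, 2819 and 2086, against 2665, 2992, 3294 and 3501 in members and 999.8, 1065, 1069 and 974 in Myoc-negative astrocytes. It was thus below the members in 3 libraries and near them in that labelled cortex AAV-CTRL. Gpc5, a grey-matter gene, stood at 842, 996, 807 and 980.1, below the 1992, 1928, 1871 and 1876 of members. Their summed neuron markers stood at 10975, 15241, 13089 and 10969, above the 7499, 6610, 5752 and 7065 of members. Scrublet, a caller of droplets with more than 1 nucleus, marked 6.74%, 17.8%, 32.8% and 13.3% of them. It marked 1, 1, 8 and 1 of the members.

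Free RNA in droplets can give Myoc UMIs to cells that do not make it, so the share of nuclei with Myoc was read in other cell types. Free RNA was not measured itself. It was not told apart from droplets with more than 1 nucleus or from Myoc made by these cells. Among oligodendrocytes (at least 2 Mog UMIs) a Myoc UMI was found in 1.16%, 0.572%, 3.08% and 0.981% of nuclei, at median depths of 1929, 1962, 2052 and 2347 UMIs. Among gated astrocytes, with or without Myoc, the share was 7.01%, 4.80%, 7.63% and 4.58% at 1912, 1894, 1912 and 2220 UMIs. At the oligodendrocyte share, the gated astrocytes of each library would hold 9.10, 6.07, 52.9 and 9.85 members. This sum was largest in the library labelled striatum AAV-CTRL, with 52.9 against the 131 members found. With at least 2 Myoc UMIs the same sum gave 3.31, 0.868, 5.88 and 0.410 against the 34, 31, 74 and 27 members found. Endothelial nuclei (at least 1 Cldn5 UMI) lay above oligodendrocytes in each library, with Myoc in 2.338%, 1.967%, 3.984% and 1.593%. At least 2 Myoc UMIs were found in 0.9804%, 0.9498%, 1.328% and 0.3463% of them. Microglia (at least 2 Csf1r UMIs) had 2.308%, 0.4132%, 4.221% and 1.377%, below oligodendrocytes in the library labelled cortex AAV-VEGF-C only. The sums from oligodendrocytes may therefore understate the background. Fibroblasts (at least 3 UMIs over Dcn and Col1a2) carried Myoc in 8.18%, 4.38%, 6.56% and 5.65% of nuclei, close to the share of gated astrocytes and above the oligodendrocyte share in each library.

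**Figure D1:**
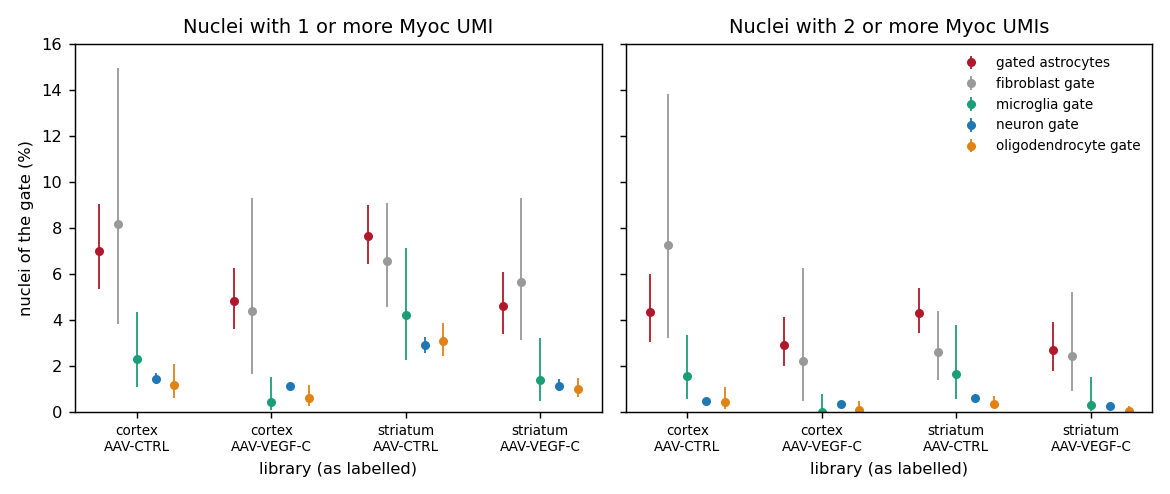
Share of nuclei with at least 1 (left) or at least 2 (right) Myoc UMIs in gated astrocytes and in nuclei gated as other cell types, by library. Points are shares in percent and bars exact 95% binomial intervals that cover counting error only. Gated astrocytes lie above oligodendrocytes in every library, and the oligodendrocyte share at 1 UMI is highest in the library labelled striatum AAV-CTRL, at 3.08%.

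To compare members with other astrocytes of the same libraries, UMIs were summed per library and class and tested with edgeR's quasi-likelihood test with the library as a block, and p-values were adjusted over all genes tested by the Benjamini-Hochberg method. The 15 genes of the rule were left out of the tested genes. A gene is called when its adjusted p is under 0.05. Against Myoc-negative astrocytes, members were higher for 179 genes (1.64% of 10894 tested) and lower for 155 (1.42%). Of these calls, 168 were higher and 149 lower in all 4 libraries. DESeq2 called 152 higher and 85 lower. The 4 libraries stand in place of replicates here, they come from a pair of mouse pools, and p-values measure only the spread between these libraries.

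Genes of surface and fibrous astrocytes formed the list with the largest shift among the lists read. The lists were chosen with earlier results of these data known, so the shift of a list is a description. Of its 18 genes, 17 were tested and 12 were higher in members, with 0 lower. The median log2 fold change of the list was 1.57, against -0.02 over all genes tested. Cd44, the receptor for hyaluronan on fibrous astrocytes, had the largest fold change of the list, 2.77 ± 0.29 on the log2 scale (SE; adjusted p 1.21e-05 by edgeR), with levels of 84.2, 69.6, 139 and 109.9 in members against 12.2, 17.3, 16.02 and 14.1. C4b, a complement component, followed with levels of 309, 258, 282 and 314 in members against 39.1, 38.7, 56.1 and 43.6. Its log2 fold change was 2.65 ± 0.18 (SE; adjusted p 1.15e-07 by edgeR). Reads of C4b can be shared with its near-identical neighbour C4a, so its level is uncertain. The lowest library of members lay above the highest library of Myoc-negative astrocytes for both genes. Both had been called, and the share of all tested genes with such a gap is not given here.

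Fabp7, a fatty-acid binding protein of radial glia and astrocytes, stood at 140, 219, 269 and 345 in members against 38.4, 35.01, 72.4 and 46.2. Its log2 fold change was 2.28 ± 0.21 (SE; adjusted p 2.52e-06 by edgeR). Slc38a1, a neutral amino acid and glutamine transporter, stood at 570, 586, 1096 and 1099 against 192, 182, 262 and 247, with a log2 fold change of 1.87 ± 0.13 (SE; adjusted p 1.15e-07 by edgeR). Both genes had higher levels in members of the striatum label than of the cortex label. Vim, the intermediate filament partner of Gfap, was at 84.2, 129, 113 and 149 against 35.2, 41.1, 39.2 and 39.8. The matrix protein gene Tnc, the acute-phase gene Serpina3n, the calcium-binding protein gene S100a6 and the glutathione transferase gene Mgst1 were also higher, with log2 fold changes of 1.71, 1.96, 1.44 and 1.34. Thbs4, Crym, Hopx, Igfbp2 and Gpc4 were not called, with log2 fold changes of 0.32, -1.07, 0.81, -0.83 and -0.34.

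**Figure D2:**
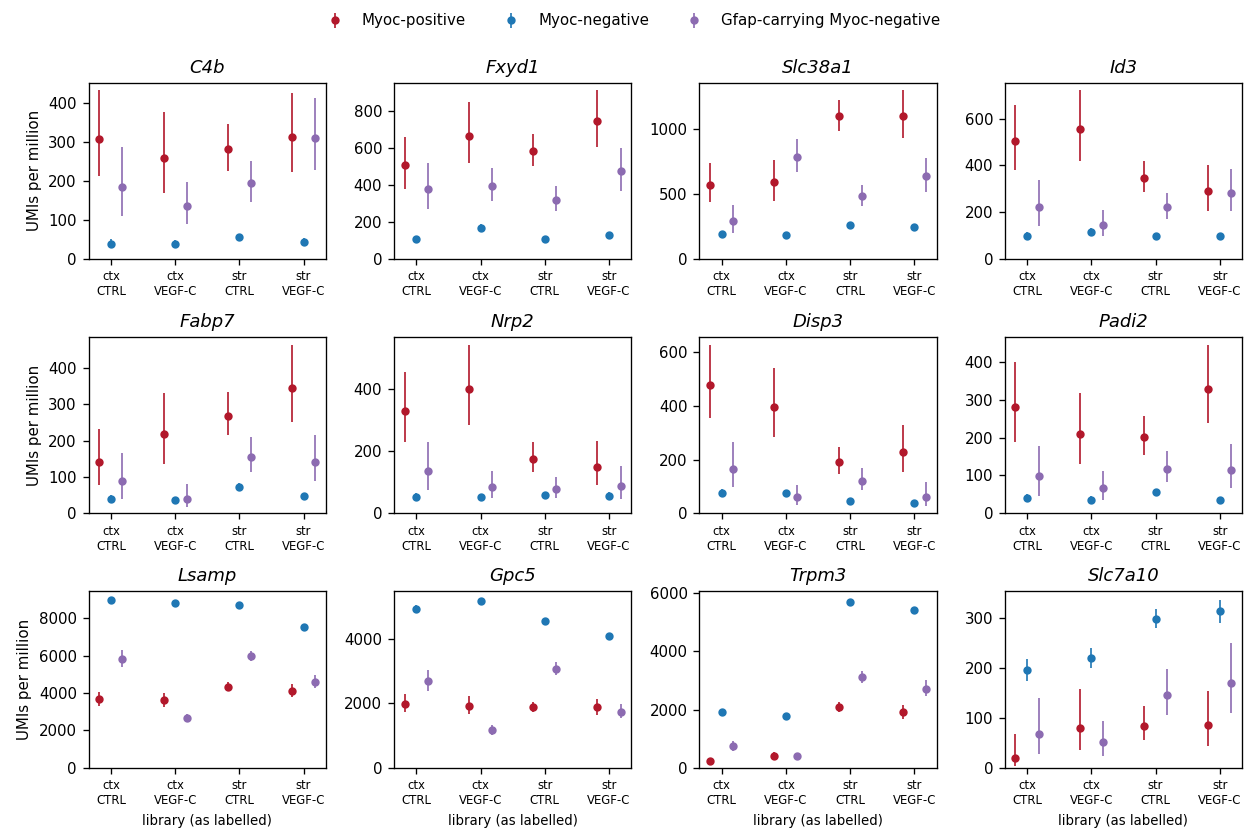
Levels of 12 genes in Myoc-positive, Myoc-negative and Gfap-carrying Myoc-negative astrocytes in each library (ctx, labelled cortex; str, labelled striatum), in UMIs per 1000000 with exact 95% Poisson intervals of the counts. The Myoc-positive points lie above the Myoc-negative points in all 4 libraries for the upper 8 genes and below them for Lsamp, Gpc5, Trpm3 and Slc7a10. Axes start at 0 and differ between panels.

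A list of BMP, TGF-beta and Id genes was called in 1 direction. In the BMP pathway, secreted bone morphogenetic proteins act through receptors and Smad proteins to switch on the Id transcriptional regulators. Of 23 genes, 19 were tested, and 9 were higher and 0 lower, against 1.64% and 1.42% of all genes tested. Fold changes were above 0 for 15, with a median log2 fold change of 0.81. At an unadjusted p under 0.05 by edgeR, 11 were higher and 2 lower. Id3 is also in the list of surface and fibrous genes. Among the receptors, Bmpr1a was higher by 0.81 ± 0.15 and Bmpr1b by 0.48 ± 0.13 (log2, SE). Smad6, an inhibitor that the pathway itself induces, was higher by 2.37 ± 0.35, and Noggin (Nog), a secreted BMP antagonist, by 2.80 ± 0.66 from 14 UMIs in members. The ligand gene Tgfb2 was higher by 0.89 ± 0.22. The ligand genes Bmp6 and Bmp7 were not called, at -0.85 and -1.35.

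All 4 Id genes were higher. Id3 stood at 505, 557, 347 and 290.5 in members against 98.6, 115, 95.9 and 96.6, a log2 fold change of 1.98 ± 0.15 (SE; adjusted p 4.56e-07 by edgeR). Id1 stood at 122, 119, 120 and 141 against 21.1, 24.3, 35.02 and 30.8, with a log2 fold change of 2.10 ± 0.24. Id4 and Id2 differed less, by 1.09 ± 0.15 and 0.86 ± 0.15. No library of members overlapped those of Myoc-negative astrocytes for any of the 4 genes. These genes had been called, and the share of all tested genes without such overlap is not given here.

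Id1 had no entry in the source of promoter sequences used here. The 250 bases before the RefSeq start of the other 3 Id genes are shown because these genes moved together, and that of Myoc because it defines the class. They are from RefSeq (assembly GRCm38.p6), written 5′ to 3′ on the strand of the gene. Capitals mark GGCGCC, the core of a BMP-responsive Smad site, in the Id genes and TATAAA, the TATA box, in Myoc, each searched on both strands.
Id2, chr12:25096093-25096342, minus strand: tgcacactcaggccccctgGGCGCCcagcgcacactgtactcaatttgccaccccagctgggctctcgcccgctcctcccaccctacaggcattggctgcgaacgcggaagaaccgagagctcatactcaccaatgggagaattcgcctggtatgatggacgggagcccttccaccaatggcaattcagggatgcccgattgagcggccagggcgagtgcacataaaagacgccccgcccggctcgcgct
Id3, chr4:136143572-136143821, plus strand: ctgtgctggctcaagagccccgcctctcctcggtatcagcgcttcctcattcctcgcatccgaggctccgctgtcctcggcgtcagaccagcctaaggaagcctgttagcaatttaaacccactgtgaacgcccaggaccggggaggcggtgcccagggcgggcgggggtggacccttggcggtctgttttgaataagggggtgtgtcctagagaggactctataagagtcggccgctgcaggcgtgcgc
Id4, chr13:48260866-48261115, plus strand: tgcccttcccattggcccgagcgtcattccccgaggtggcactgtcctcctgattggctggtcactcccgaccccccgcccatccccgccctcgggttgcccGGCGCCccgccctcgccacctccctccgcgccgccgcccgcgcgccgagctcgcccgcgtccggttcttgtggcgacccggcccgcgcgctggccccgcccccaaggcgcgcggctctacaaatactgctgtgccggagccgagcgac
Myoc, chr1:162638900-162639149, plus strand: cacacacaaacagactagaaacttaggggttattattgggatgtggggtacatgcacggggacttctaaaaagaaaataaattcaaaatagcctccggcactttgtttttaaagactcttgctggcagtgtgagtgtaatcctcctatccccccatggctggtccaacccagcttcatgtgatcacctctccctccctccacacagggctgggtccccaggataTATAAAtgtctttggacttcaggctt
GGCGCC is in the windows of Id2 and Id4 and not in that of Id3, and 9.59% of the 32851 promoter windows of this length hold it. TATAAA is in 12.4% of them. Of 5 other motifs searched, CAGAC was in the windows of Id3 and Myoc (42.2% of all windows), and GTCTAGAC, CACGTG, TTCCNGGAA and the full palindromic nuclear factor I site were in none of the 4 windows (0.167%, 6.02%, 0.913% and 0.0365% of all). These matches describe letters and not sites in use. By GENCODE M21 the Id3 gene starts at 136143497, ahead of its window, which lies within the gene by that annotation.

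Further genes outside these lists had large folds in all 4 libraries. Padi2, which converts arginine to citrulline in proteins such as intermediate filaments, stood at 280.5, 209, 201 and 329.7 in members against 39.7, 35.5, 54.9 and 35.5, a log2 fold change of 2.53 ± 0.22 (SE; adjusted p 1.47e-06 by edgeR). Disp3, a membrane protein with a sterol-sensing domain, stood at 477, 398, 191 and 228 against 74.3, 75.2, 44.5 and 38.1, with a log2 fold change of 2.39 ± 0.17. Fxyd1 and Fxyd6, small regulators of the sodium pump, differed by 2.28 ± 0.13 and 2.30 ± 0.21. Fxyd1 was at 505, 666, 584 and 746 against 106, 168, 108 and 129, and its adjusted p of 2.15e-08 by edgeR was the lowest of these genes. Fxyd6 was higher in the members of the cortex label (496 and 507) than of the striatum label (237 and 181), which was also so for Disp3.

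The extracellular enzymes Sulf2, which trims heparan sulfate, and Adamts9, a matrix protease, were higher by 2.38 ± 0.20 and 2.04 ± 0.16. Man1c1, a mannosidase of protein glycosylation, was higher by 1.85 ± 0.19. Slc16a1, a lactate transporter, and Scd1, a fatty-acid desaturase, were higher by 1.97 ± 0.29 and 1.87 ± 0.21. Slc16a1 reached 195 and 314 in the members of the striatum label and 65.5 and 49.7 in those of the cortex label, against 25.2 to 44.5 in Myoc-negative astrocytes. Scd1 is a paralog of Scd2, which was higher by 0.82 ± 0.11, and reads shared between them could move either value.

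Grey-matter astrocyte genes lay on the other side. Of 17 genes, 16 were tested, and 12 were lower and 0 higher in members, with a median log2 fold change of -0.86. Trpm3, a cation channel gene with a large primary transcript, stood at 215, 388, 2085 and 1916 in members against 1928, 1774, 5707 and 5414, a log2 fold change of -1.92 ± 0.18 (SE; adjusted p 3.86e-06 by edgeR). Slc7a10, a transporter of serine and glycine, stood at 18.7, 79.5, 84.3 and 86.4 against 195, 219, 299 and 313, with a log2 fold change of -1.94 ± 0.21. Both classes had more Trpm3 under the striatum label, and members were lower under each label.

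The proteoglycan gene Gpc5 and the adhesion gene Lsamp were among the most abundant of this list. Gpc5 stood at 1992, 1928, 1871 and 1876 in members against 4942, 5173, 4556 and 4086, and Lsamp at 3675, 3608, 4348 and 4106 against 8968, 8829, 8741 and 7541. Their log2 fold changes were -1.32 ± 0.10 and -1.15 ± 0.11. The glutamate receptor genes Gria2 and Grm3 were lower by the same order, at -1.19 ± 0.12 and -1.18 ± 0.12, and the GABA transporter gene Slc6a11 by -0.97 ± 0.13. Slc1a2, which codes for the main glutamate transporter of astrocytes, was not called, at 0.13, nor were Nrg3 and Nlgn1, at 0.24 and -0.04.

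The other genes with the largest lower folds were rare in both classes. Adam12, a membrane protease, gave 8 UMIs in members and 606 in Myoc-negative astrocytes, a log2 fold change of -2.42 ± 0.50 (SE; adjusted p 0.0083 by edgeR). Fn1, which codes for fibronectin, gave 11 and 626, with -2.04 ± 0.39. Aox1, an aldehyde oxidase, gave 9 and 544, with -2.05 ± 0.40. The log2 fold changes of A330076C08Rik, Fam163a, Slc13a5, Arhgef28 and Nmur2 ran from -2.28 to -1.76.

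**Figure D3:**
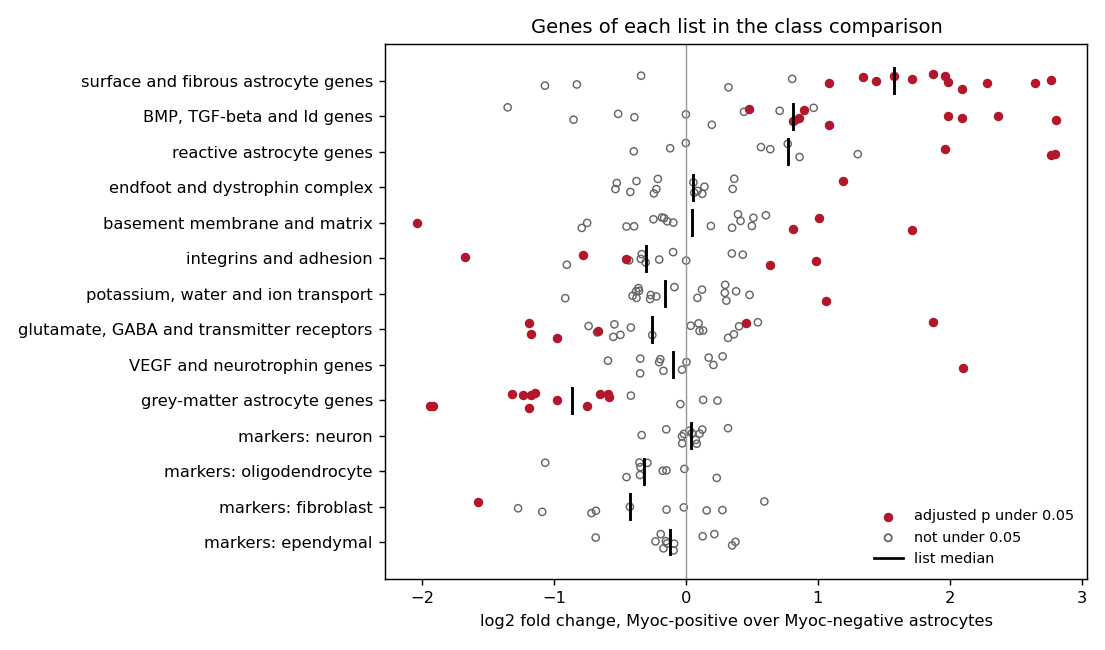
Fitted log2 fold changes between Myoc-positive and Myoc-negative astrocytes for the tested genes of 14 lists, which were chosen with earlier results of these data known. Filled points have an adjusted p under 0.05 by edgeR and the black line is the list median. Surface and fibrous genes centre on 1.57 and grey-matter genes on -0.86, while markers of neurons, oligodendrocytes, fibroblasts and ependymal cells lie near or below 0. Both classes had met the same limits of the rule on neuron and oligodendrocyte genes.

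The tested genes of the astrocyte endfoot, the process that ends on vessels and on the pia, changed little as a group. Aqp4, a gene of the rule that was higher in members as described above, was not among the genes tested. Of 15 tested, Mlc1 alone was called, with 617, 517, 503 and 487 in members against 226, 246, 210 and 226, a log2 fold change of 1.19 ± 0.12. The dystrophin-complex genes Dag1, Dtna and Dmd had log2 fold changes of 0.14, -0.24 and -0.21, and the potassium channel gene Kcnj10 had 0.09. Of 20 tested basement membrane and matrix genes, Tnc, Sparcl1 (1.01 ± 0.12) and the proteoglycan gene Ncan (0.81 ± 0.19) were higher and Fn1 was lower. The laminin, nidogen and collagen IV genes that could be tested had log2 fold changes from -0.79 (Lama1) to 0.61 (Col4a6), and edgeR called none of them.

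Among integrins and adhesion genes, 2 of 15 were higher, the tetraspanins Cd9 (0.99 ± 0.19) and Cd81 (0.63 ± 0.11), and 3 were lower, Cdh4 (-1.68 ± 0.29), Cdh2 (-0.78 ± 0.16) and Ncam1 (-0.46 ± 0.11). Of 7 tested intermediate filaments and linkers, Vim and the crosslinker gene Plec (1.69 ± 0.17) were higher. Gfap, higher in members as described above, was not tested because it is a gene of the rule. Of 11 tested genes of reactive astrocytes, 3 were higher, namely Cd44, Serpina3n and Ggta1 (2.80 ± 0.32), a glycosyltransferase gene. Lcn2, Steap4 and Timp1 were among the genes of that list that did not pass the filter on low counts.

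Of 18 tested genes of ion and water transport, which again left out Aqp4, the sodium-calcium exchanger gene Slc8a1 was called (1.06 ± 0.21). Of 21 tested transmitter genes, 2 were higher, Slc38a1 and the kainate receptor gene Grik2 (0.46 ± 0.12), and 4 were lower, Gria2, Grm3, Slc6a11 and the GABA-B receptor gene Gabbr2 (-0.66 ± 0.17). Of 19 tested lipid and retinoid genes, 5 were higher, with Apoe at 6162, 6978, 5538 and 5228 in members against 2203, 2875, 2808 and 3125 (1.09 ± 0.12) and the cholesterol synthesis gene Hmgcs1 at 0.99 ± 0.15. Ptgds, a prostaglandin synthase gene abundant in the meninges, was lower (-0.81 ± 0.19), but was at 290, 1004, 801 and 1021 in members against 746, 850, 2078 and 1609. Its direction turned to 0.18 when other-cell genes of the rule were held at 0 UMIs. Of 13 tested Notch genes, Dner was called (0.80 ± 0.14). Among the other olfactomedin-domain genes, 0 of 6 were higher and Adgrl3, a latrophilin receptor gene, was lower (-0.59 ± 0.11). Of 9 tested immediate early genes, edgeR and DESeq2 called 0, and 1 had an unadjusted p under 0.05, with a median log2 fold change of 0.15.

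Markers of other cell types did not move with the class in a body. Both classes had met the same limits on neuron, oligodendrocyte, microglia, endothelial and precursor genes. A small difference in markers of these cells can therefore follow in part from the rule. Of 12 neuron, 10 oligodendrocyte, 5 microglia, 7 endothelial, 6 mural and 12 ependymal markers tested, 0 were called by edgeR or DESeq2. At an unadjusted p under 0.05 by edgeR, 1 neuron, 1 oligodendrocyte and 2 mural markers were lower and 1 endothelial marker was higher. Of 11 fibroblast markers Slc13a3 was lower by edgeR. In further lists of 6 tested genes each, both tools called Xylt1 among oligodendrocyte precursor markers (-0.89 ± 0.16) and Egfr among radial glia markers (-0.87 ± 0.17) as lower. Of 6 tanycyte markers tested, edgeR and DESeq2 each called 1 as higher. Summed choroid plexus markers stood at 131, 199, 817 and 408 in members against 410.5, 320, 403 and 332, highest in members of the library labelled striatum AAV-CTRL. Summed neuron markers stood at 7499, 6610, 5752 and 7065 in members and at 7104, 6727, 5824 and 5409 in Myoc-negative astrocytes. Summed fibroblast markers stood at 206, 447, 519 and 636 against 538, 540, 838 and 546. The summed level of the 12 ependymal markers was 84.2, 29.8, 1786 and 126 in members, and 3 members of the library labelled striatum AAV-CTRL held 5 or more such UMIs, one of them 492 of that library's 551. Without nuclei of 5 or more ependymal UMIs, an alternative chosen after seeing the data, 267 genes were higher and 248 lower, and these included all 334 genes called with them.

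Mitochondrial transcripts took 2.02%, 2.42%, 1.89% and 1.74% of UMIs in members and 1.04%, 1.25%, 1.14% and 1.25% in Myoc-negative astrocytes. In Gfap-carrying astrocytes they took 1.37%, 2.64%, 1.40% and 1.89%, above the members in both AAV-VEGF-C libraries and below them in the others. Against Myoc-negative astrocytes, of 13 mitochondrial genes, 11 were higher and 0 lower, with a median log2 fold change of 0.73. Their part in the other results was not tested.

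Genes were next followed along the number of Myoc UMIs in a nucleus, over all libraries. These nuclei are the ones of the comparison above, so the values are a description. Slc38a1 stood at 228 in nuclei with 0, 628 with 1, 788 with 2 to 3 and 1410 with 4 or more Myoc UMIs. Fxyd1 stood at 126, 297.5, 510 and 1091, Id3 at 101, 206, 355 and 661, and Cd44 at 15.2, 44.1, 96.9 and 213. Each of these 4 genes was higher at each step. Nrp2 differed from this order, with 55.5, 121, 394 and 250. Among grey-matter genes, Gpc5 fell by step from 4644 to 3147, 1234 and 809, and Slc7a10 from 267 to 117.5, 71.1 and 18.5, the last from 4 UMIs. Slc1a2 stayed between 4253 and 5318. Median depths of the 4 steps were 1964, 1955, 1644 and 2281 UMIs. Members with 1 Myoc UMI lay between Myoc-negative astrocytes and members with more Myoc for both lists as sums, with surface and fibrous genes at 1033, 1939, 3010 and 4874 and grey-matter genes at 36895, 27688, 19454 and 17396.

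**Figure D4:**
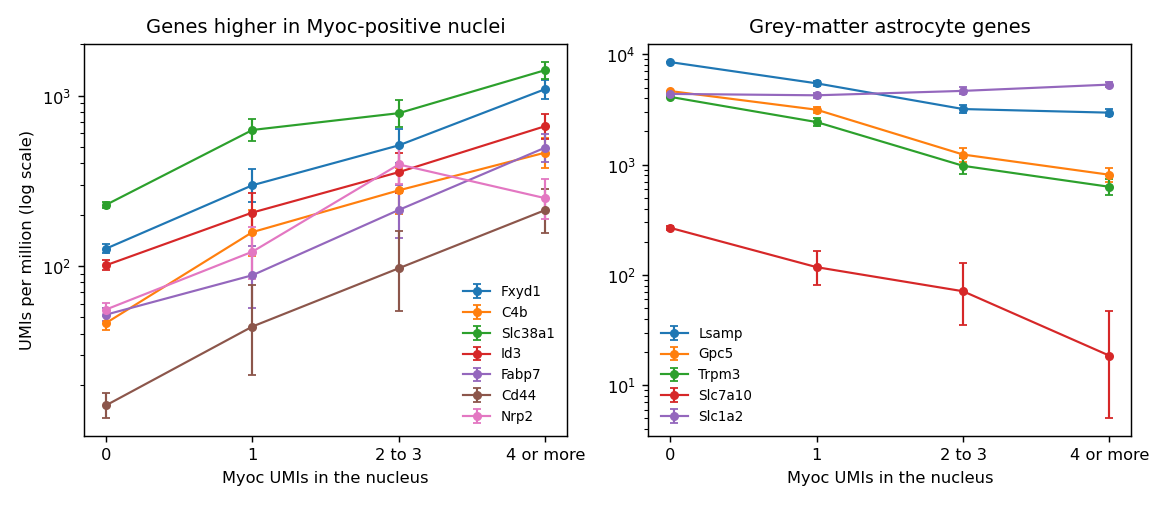
Levels of genes by the number of Myoc UMIs in a nucleus, for gated astrocytes of all 4 libraries (4284, 117, 81 and 85 nuclei), in UMIs per 1000000 on a log scale with exact 95% Poisson intervals. Left, genes higher in members, which reach 1410 for Slc38a1 at 4 or more Myoc UMIs. Right, grey-matter genes, of which Slc1a2 stays between 4253 and 5318 while the other plotted genes decline.

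A narrower comparison set members against the Gfap-carrying Myoc-negative astrocytes. These 43, 59, 130 and 56 nuclei had Gfap at 1459, 1122, 1475 and 1986. The rule for members set no Gfap minimum, and a Gfap UMI was found in 213 of 283 members (75.3%). The classes were thus not matched on Gfap. Of 3243 genes tested, 8 were higher in members (0.247%) and 1 was lower (0.0308%). Fxyd6 had the largest fold change among those with at least 100 UMIs, with 496, 507, 237 and 181 in members against 48.6, 146, 83.3 and 122, a log2 fold change of 1.68 ± 0.30 (SE; adjusted p 0.0346 by edgeR). Disp3, Nrp2, Man1c1, Padi2 and Prkag2, a regulatory subunit of the energy-sensing kinase AMPK, were higher by 1.57, 1.38, 1.35, 1.29 and 1.27. Also higher, with under 100 UMIs and named after its value was seen, was Fbxo2, a subunit of a ubiquitin ligase. Sparc, a secreted matrix protein, was lower, with 84.2, 109, 499 and 612 in members against 253, 453, 798 and 1297, a log2 fold change of -1.20 ± 0.24 (SE; adjusted p 0.0366 by edgeR). In each of these genes the direction was the same in all 4 libraries.

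Whether a gene passed the test depended on the tool and on single libraries. DESeq2 called 0 genes, with 32 higher and 18 lower at an unadjusted p under 0.05. The edgeR test also called 0 without the library labelled cortex AAV-CTRL (71 and 47 at an unadjusted p under 0.05) or the one labelled striatum AAV-VEGF-C (68 and 39). The Gfap-carrying class held ependymal markers at 1731, 6400, 333 and 155, and 10 of its nuclei had 5 or more ependymal UMIs. Without these and the 3 members of the same kind, 33 genes were higher and 20 lower, and all 9 earlier calls were among them. In that comparison, chosen after seeing the data, 4 of 9 tested surface and fibrous genes were higher, namely Slc38a1 (1.09 ± 0.17), Fabp7 (1.07 ± 0.22), S100a6 (0.95 ± 0.28) and Id3 (0.75 ± 0.19). Of the 16 tested grey-matter genes 3 were lower, Slc6a11 (-1.08 ± 0.17), Trpm3 (-0.76 ± 0.16) and Gria2 (-0.72 ± 0.17). Cst3, a secreted protease inhibitor, was lower by -1.12 ± 0.14 and Fxyd1 was higher by 0.63 ± 0.17.

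Members differed between the region labels in genes that pattern the brain. Transcription factors and other genes of the telencephalon, the forebrain part that holds cortex and striatum, summed to 524, 586, 256 and 204. Genes of other brain divisions summed to 215, 209, 1038 and 1303. Agt, the angiotensinogen gene, which is abundant in astrocytes of thalamus and brainstem, stood at 37.4, 79.5, 509 and 722. The Irx genes (Irx1, Irx2, Irx3 and Irx5) had 0 UMIs in members of the cortex label. Myoc-negative astrocytes had the same split, with 778, 955, 370 and 381 for telencephalic and 202, 238, 1205 and 1341 for other genes. Against Myoc-negative astrocytes, 1 of 5 tested telencephalic genes was called, Mfge8, which was lower (-1.24 ± 0.15), and 1 of 12 genes of other divisions, Itih3, also lower (-1.18 ± 0.21).

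Ligands and receptors of the VEGF family were read because of the virus. Nrp2, neuropilin 2, a co-receptor that binds VEGF-C, was the member of this list that passed the test. It stood at 327, 398, 175 and 149 in members against 52.5, 50.4, 59.4 and 56.4 in Myoc-negative and 136, 85.5, 76.4 and 87.8 in Gfap-carrying astrocytes. The log2 fold change was 2.10 ± 0.24 (SE; adjusted p 2.14e-05 by edgeR) against Myoc-negative and 1.38 ± 0.27 (adjusted p 0.0366 by edgeR) against Gfap-carrying astrocytes. The latter call of Nrp2 was lost with DESeq2, and without the library labelled cortex AAV-CTRL or that labelled striatum AAV-VEGF-C. The gene lies at chr1:62703285-62818695 on the plus strand (GENCODE M21, GRCm38). The VEGF-C receptors themselves were near absent, with 2 UMIs of Flt4 and 2 of Kdr in all members. Nrp1 gave 60 UMIs and was not called (-0.35), like the ligand genes Vegfa (-0.35) and Vegfb (0.00). Vegfc gave 1, 1, 6 and 0 UMIs.

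Neurotrophin genes showed no call either. Ntrk2, the receptor of BDNF, stood at 1075, 1143, 1063 and 1115 in members against 1087, 993, 1128 and 1169, a log2 fold change of -0.03 ± 0.11. Bdnf gave 16 UMIs in members, and Ntf3, Gdnf, Cntf and Lif gave 0, where up to 3 UMIs of each in all members would be allowed by counting error. Cntfr, the receptor of ciliary neurotrophic factor, was higher in members in each library, at 168, 209, 143 and 149 against 124, 157, 120 and 132, and was not called (0.28 ± 0.16).

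The virus groups were compared first by the share of members. Members made up 0.320% (interval 0.241 to 0.417) of nuclei in the cortex AAV-CTRL library and 0.250% (0.187 to 0.329) in the cortex AAV-VEGF-C library, a log2 ratio of AAV-VEGF-C over AAV-CTRL of -0.36 (-0.93 to 0.22). They made up 0.552% (0.462 to 0.655) and 0.263% (0.193 to 0.351) in those labelled striatum, a log2 ratio of -1.07 (-1.59 to -0.57). The share was lower in the AAV-VEGF-C library under both labels, and the counting interval left out 0 for the striatum label. Under the cortex label the interval also left out 0 when nuclei were thinned to 1000 UMIs (-0.63, -1.24 to -0.03) and when the neuron and other-cell limits were dropped, an alternative chosen after seeing the data (-0.40, -0.75 to -0.05). As a share of gated astrocytes the log2 ratios were -0.55 (-1.12 to 0.03) and -0.74 (-1.25 to -0.24).

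Myoc in oligodendrocytes moved the same way. The share of oligodendrocytes with a Myoc UMI, 1.16% and 0.572% under the cortex label and 3.08% and 0.981% under the striatum label, was also lower in both AAV-VEGF-C libraries. With at least 2 Myoc UMIs, where the oligodendrocyte share was 0.421%, 0.0817%, 0.343% and 0.0409%, the log2 ratios per gated astrocyte were -0.57 (-1.32 to 0.18) and -0.68 (-1.37 to -0.03). The part of background, tissue sampling and virus in these shares was not tested. With 1 library per group they cannot be told apart.

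Between the virus groups, most genes measured in members stayed within the fold used. Of 609 genes with at least 50 UMIs under the cortex label, 92 passed an absolute log2 ratio of 0.58 (15.1%), 42 higher and 50 lower in AAV-VEGF-C, and of 1878 under the striatum label 354 did (18.8%), 156 higher and 198 lower. Of the 596 genes measured under both, 5 passed the fold as higher under both labels, 3 as lower under both and 5 in opposite directions. Surface and fibrous genes as a sum had log2 ratios of 0.17 (-0.07 to 0.41) and 0.09 (-0.08 to 0.25), and BMP and Id genes 0.06 (-0.17 to 0.30) and 0.06 (-0.13 to 0.24). The VEGF and neurotrophin genes had 0.06 (-0.19 to 0.31) and 0.04 (-0.16 to 0.24). Each of these intervals held 0. Other lists had intervals that left out 0 under 1 label, such as lipid genes with 0.19 (0.08 to 0.29) and transmitter genes with 0.13 (0.02 to 0.23) under the cortex label, and ion and water transport with 0.15 (0.04 to 0.26) and patterning genes of other brain divisions with 0.33 (0.05 to 0.60) under the striatum label. The reactive list had 0.33 (-0.19 to 0.85) and -0.49 (-0.86 to -0.13). Summed markers of other cell types also moved, with -0.18 (-0.33 to -0.03) and 0.30 (0.18 to 0.41) for neurons, 1.12 (0.35 to 1.93) and 0.29 (-0.11 to 0.69) for fibroblasts and, under the striatum label, -3.83 (-4.65 to -3.12) for ependymal, -1.71 (-2.71 to -0.84) for endothelial and -1.001 (-1.46 to -0.57) for choroid plexus cells. Mural markers had 1.84 (0.67 to 3.19) under the cortex label. Their part in the levels was not tested.

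Gfap in members, a gene of the rule, was 1692 and 1700 under the cortex label, a log2 ratio of 0.01 (-0.30 to 0.32). Under the striatum label it was 2069 in AAV-CTRL and 3274 in AAV-VEGF-C, a log2 ratio of 0.66 (0.48 to 0.84), and 0.64 (0.44 to 0.83) among members with at least 2 Myoc UMIs. Myoc-negative astrocytes of the same libraries went the other way, with 195 and 167 and a log2 ratio of -0.22 (-0.41 to -0.04). The Gfap-carrying Myoc-negative astrocytes went the same way as members, with 1475 (1338 to 1622) and 1986 (1766 to 2227). That class was chosen by its Gfap UMIs, so its Gfap level is a description. Its median depth was 1968.5 UMIs in AAV-CTRL and 2494 in AAV-VEGF-C. Aqp4 had log2 ratios of 0.05 (-0.26 to 0.37) and 0.09 (-0.11 to 0.29), and Nrp2 of 0.28 (-0.41 to 0.98) and -0.23 (-1.07 to 0.55).

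By rule, 5 of the 596 genes measured under both labels were named. They passed the fold with the same direction and with intervals that left out 0 under both labels. As given above, 5 genes passed the fold in opposite directions. How many genes would pass between libraries of the same virus was not tested. Rps29, a ribosomal protein gene, stood at 645 and 1143 under the cortex label and at 519 and 840 under the striatum label, with log2 ratios of 0.83 (0.38 to 1.28) and 0.70 (0.33 to 1.06). Atp5k, a subunit of the mitochondrial ATP synthase, had 0.94 (0.22 to 1.69) and 0.72 (0.08 to 1.34). Both genes were also higher in Myoc-negative astrocytes of the AAV-VEGF-C libraries, by 0.70 and 0.60 for Rps29 and by 0.64 and 0.61 for Atp5k. Eps15, an endocytosis adaptor gene, had -0.87 (-1.78 to -0.01) and -1.14 (-1.99 to -0.39) and Exoc4, an exocyst subunit gene, -0.82 (-1.60 to -0.07) and -0.67 (-1.22 to -0.15). In Myoc-negative astrocytes the values were -0.18 and -0.15 for Eps15 and -0.10 and 0.03 for Exoc4. Among members with at least 2 Myoc UMIs Exoc4 had -0.08 (-1.09 to 0.91) and -0.49 (-1.24 to 0.20), and without called doublets Atp5k under the striatum label had 0.63 (-0.02 to 1.26). Rgs7, a regulator of G-protein signalling found mainly in neurons, had 0.98 (0.18 to 1.82) and 0.76 (0.09 to 1.41). Under the striatum label the ratio turned to -1.87 (-4.24 to -0.15) among members with at least 2 Myoc UMIs. Myoc-negative astrocytes also carried Rgs7, at 581, 558, 335 and 306.5, with log2 ratios of -0.06 and -0.13.

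**Figure D5:**
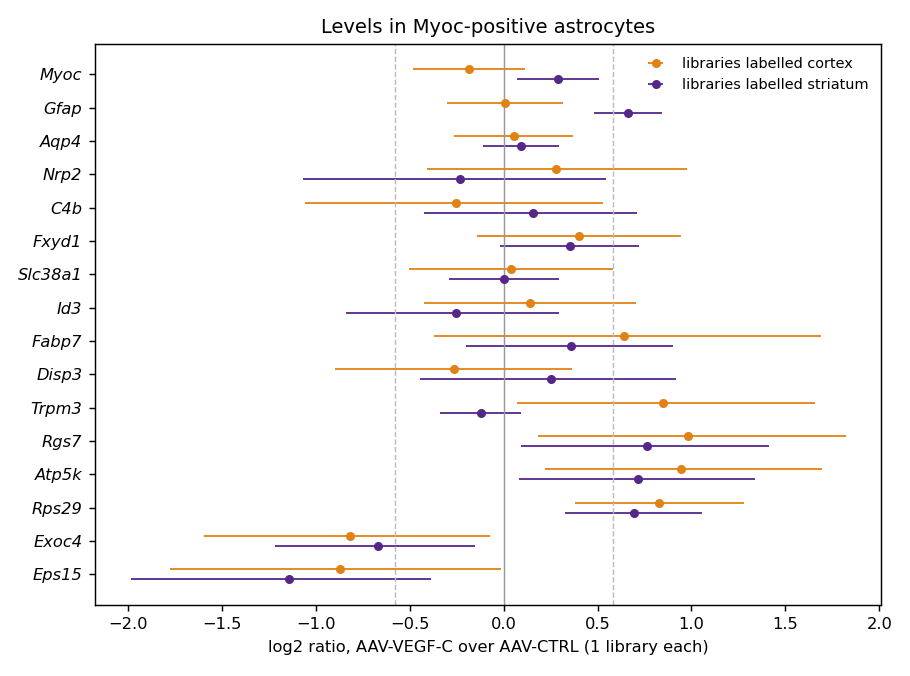
Log2 ratio of the level in Myoc-positive astrocytes, AAV-VEGF-C over AAV-CTRL, for genes of the rule, genes higher or lower in members and the 5 genes that passed the fold under both labels. Points are ratios of 1 library to 1 library, bars exact 95% conditional binomial intervals, and dashed lines mark 0.58 and -0.58. Gfap under the striatum label lies at 0.66 with an interval that leaves out 0.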

How the data were processed

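The authors prepared 10x Genomics 3′ libraries and deposited raw UMI counts per gene and nucleus. Per the file headers the counts were made with Cell Ranger 5.0.1, whereas the submitters' processing notes list Cell Ranger 5.1.1 and mm10. The annotation and the counting of introns and strand are not given in the sources used here. The authors state that they discarded nuclei under 200 UMIs and removed low-count clusters. The lowest deposited nucleus had 719 UMIs. Library totals were 63165470, 78332657, 77253372 and 67773329 UMIs. No annotation by the authors was used.

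Members were taken by the rule on the counts of 31053 genes. The members and gene lists were chosen with earlier results of these data known. UMIs were summed per library and class. Class tests used edgeR 4.0.16 (glmQLFit and glmQLFTest, TMM factors, filterByExpr, library as block), and SEs were derived from the F statistic. The script was tested on simulated data. Shares have Clopper-Pearson, levels exact Poisson and ratios exact conditional binomial intervals (scipy 1.17.1), all for counting error only. Genes were named by rule, as the 15 higher and 10 lower genes of each class test with the largest fold among those called, with the same direction in 4 libraries and at least 100 UMIs, up to 6 called genes per list with members needed to describe it, and the genes past 0.58 under both labels. Alternatives were a Myoc minimum of 2 UMIs, Scrublet doublets (scanpy 1.11.5, expected rate 8%) left out, other-cell genes at 0 UMIs, matched depth, thinning to 1000 UMIs, DESeq2 1.42.0, no TMM, no filter, no block, leaving out each library, other UMI minimums and, chosen after seeing the data, leaving out ependymal-rich nuclei and dropping the neuron and other-cell limits. Positions are from GENCODE M21, on the assembly that mm10 names. Some genes that the naming rule selects are not reported here.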

Additional observations from a re-analysis of the deposited data

How the results depend on the processing

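Calls against Myoc-negative astrocytes were most sensitive in the lower direction. Main counts of 179 higher and 155 lower became 263 and 359 with at least 2 Myoc UMIs, 96 and 99 with other-cell genes at 0 UMIs, 267 and 248 without ependymal-rich nuclei (chosen after seeing the data), 152 and 85 with DESeq2, 202 and 280 without a filter, and 96 and 24 without the library block. Leaving out 1 library each gave 129 to 157 higher and 90 to 186 lower, with 90 without the library labelled cortex AAV-CTRL and 101 without that labelled striatum AAV-VEGF-C. Of 80 genes followed, 31 were called under every alternative and 79 were never reversed, the exception being Ptgds at 0.18 with other-cell genes at 0 UMIs.

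Against Gfap-carrying astrocytes, 8 higher and 1 lower became 25 and 13 with at least 2 Myoc UMIs, 2 and 0 without called doublets (98 and 71 at an unadjusted p under 0.05 by edgeR), 6 and 3 with other-cell genes at 0, 19 and 9 with matched depth, 13 and 9 when thinned, 33 and 20 without ependymal-rich nuclei (chosen after seeing the data), 15 and 13 without a filter, and 0 and 0 with DESeq2 (32 and 18 at an unadjusted p under 0.05) or edgeR without the block (72 and 35). Leaving out 1 library each gave 0 to 13 higher and 0 to 4 lower.

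The share ratio under the striatum label became -1.61 with other-cell genes at 0 UMIs and the ratio under the cortex label, -0.36, became -0.63 both with other-cell genes at 0 UMIs (-1.80 to 0.49) and when thinned (-1.24 to -0.03). Both ratios kept their sign under the other alternatives. Genes past the fold between virus groups, 92 of 609 and 354 of 1878 under the cortex and striatum labels, became 14 of 193 and 80 of 658 with at least 100 UMIs, 657 of 2357 and 1593 of 5220 with at least 20, 40 of 297 and 146 of 788 with at least 2 Myoc UMIs, and 28 of 216 and 80 of 469 when thinned, so that fewer or more genes were measured in each. Rgs7 under the striatum label turned to -1.87 with at least 2 Myoc UMIs. The causes were not tested. No paired analysis was possible because the virus groups have 1 library each per region label and so share fewer than 2 replicate numbers. The class tests had the library as a block. Member counts of 46 to 131 per library limit precision.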
